A study of Homo sapiens with 4 samples.

Results

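The adhesion G protein-coupled receptors (GPCRs) *ADGRF1*, *ADGRF4*, *ADGRF5*, *ADGRG1*, *ADGRG6*, *ADGRE2*, *ADGRE5*, *ADGRL1*, *ADGRL2* and *ADGRA3* were described in HML58-3 cells treated with mock, decitabine (DAC), OR-2003 or OR-2100. These 10 genes were measured by 16 probes, among 25006 named genes and 58201 gene probes on the array. The probes were those whose RefSeq accession belongs to one of the genes. The group was selected on the measured differences between drugs and mock, because the *ADGRF1* probe had the lowest of them among probes well above background on every array, so these values are a description and were not tested.

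HML58-3 is a derivative of HCT116, a human colorectal carcinoma cell line, and was engineered with a luciferase reporter that reads out demethylation. All 4 groups were this line, seeded on day 0, given mock or a drug at 1 μM (prepared in DMSO) on day 1, and harvested on day 5. DAC is a cytidine analog that traps DNA methyltransferases in DNA, and OR-2003 and OR-2100 are prodrugs that release DAC. There was 1 one-colour Agilent array per group, which leaves the differences without replicates and without p-values. Drug values in a row follow the order of DAC, OR-2003, OR-2100. All arrays shared 1 slide and 1 scan, and 31601 to 33282 probes per array were well above background. Colon epithelial markers were present, with 8 of 12 well above background with mock and 10 with each drug, while *LGR5* and *CEACAM5* did not reach that level on any array. The summed linear level of this list, where 1 is the 75th percentile of the array, was 1308 with mock and 1590 to 1687 with the drugs. *KRT18* and *KRT19*, at 8.78 and 9.34 with mock on the log2 scale, made up most of this sum. It is therefore not a level of the list as a whole. Of the 12 genes, 5 had lower values than mock with all drugs and 6 had higher ones. The adhesion genes *EPCAM* and *CDH1* were 2.81, 2.88 and 2.74-fold and 2.13, 2.27 and 2.37-fold lower, while the keratins *KRT8*, *KRT18* and *KRT19* were 1.24 to 1.51-fold higher and *KRT20*, not well above background with mock, at least 7.90, 8.71 and 7.004-fold higher. Their part in the receptor values was not tested.

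Adhesion GPCRs have a long extracellular region, often with cell adhesion domains, joined to a seven-helix membrane domain. Most carry a GAIN domain, in which the protein cleaves itself at a proteolysis site close to the membrane. Loss of the outer fragment can expose a tethered peptide that activates the receptor, which then acts through heterotrimeric G proteins. *ADGRF1*, also called GPR110, responds to synaptamide, a lipid made from docosahexaenoic acid, and can raise cAMP. *ADGRF1*, *ADGRF4* and *ADGRF5* lie close together on chromosome 6.

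The promoters are shown because the drugs act on DNA methylation, which in mammals is placed mainly on CG pairs. Sequences are from RefSeq on GRCh38.p14, run from 250 bases before to 50 bases after a transcript start, and are written 5′ to 3′ on the strand of the gene. Capitals mark CG, which reads the same on both strands. Of the members, 7 had 17 such windows of 300 bases, since several genes have more than 1 start. *ADGRF1*, *ADGRG1* and *ADGRG6* are shown as genes lower with the drugs, *ADGRL2* as the gene that was higher, and *ADGRF4* as a relative near *ADGRF1*. For *ADGRG1* and *ADGRL2*, the window with the most CG among 3 and 8 is given. The windows are chr6:47042283-47042582 (minus strand) for *ADGRF1*, chr6:47698330-47698629 (plus) for *ADGRF4*, chr16:57628380-57628679 (plus) for *ADGRG1*, chr6:142301757-142302056 (plus) for *ADGRG6* and chr1:81800684-81800983 (plus) for *ADGRL2*.
ADGRF1: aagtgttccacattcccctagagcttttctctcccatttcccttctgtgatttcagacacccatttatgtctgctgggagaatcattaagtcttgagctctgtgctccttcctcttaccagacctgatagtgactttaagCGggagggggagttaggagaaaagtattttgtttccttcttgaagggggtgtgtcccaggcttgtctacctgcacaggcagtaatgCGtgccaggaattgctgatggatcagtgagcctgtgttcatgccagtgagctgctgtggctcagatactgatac
ADGRF4: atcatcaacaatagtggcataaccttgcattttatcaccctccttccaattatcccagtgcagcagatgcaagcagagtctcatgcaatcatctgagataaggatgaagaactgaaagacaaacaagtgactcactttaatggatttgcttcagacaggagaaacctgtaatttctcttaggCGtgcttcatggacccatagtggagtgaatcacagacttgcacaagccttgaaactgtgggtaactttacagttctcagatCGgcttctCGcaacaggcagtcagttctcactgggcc
ADGRG1: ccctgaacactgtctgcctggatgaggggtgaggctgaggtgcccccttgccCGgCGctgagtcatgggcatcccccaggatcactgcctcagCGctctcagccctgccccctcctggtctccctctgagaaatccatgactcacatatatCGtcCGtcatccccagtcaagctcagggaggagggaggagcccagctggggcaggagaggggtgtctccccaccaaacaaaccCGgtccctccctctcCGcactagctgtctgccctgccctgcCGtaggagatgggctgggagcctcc
ADGRG6: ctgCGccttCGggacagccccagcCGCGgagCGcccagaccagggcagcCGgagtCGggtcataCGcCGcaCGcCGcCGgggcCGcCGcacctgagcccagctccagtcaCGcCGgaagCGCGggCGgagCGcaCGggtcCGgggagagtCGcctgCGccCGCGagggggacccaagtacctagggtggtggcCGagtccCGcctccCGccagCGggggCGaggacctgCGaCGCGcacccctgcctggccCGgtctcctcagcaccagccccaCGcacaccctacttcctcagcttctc
ADGRL2: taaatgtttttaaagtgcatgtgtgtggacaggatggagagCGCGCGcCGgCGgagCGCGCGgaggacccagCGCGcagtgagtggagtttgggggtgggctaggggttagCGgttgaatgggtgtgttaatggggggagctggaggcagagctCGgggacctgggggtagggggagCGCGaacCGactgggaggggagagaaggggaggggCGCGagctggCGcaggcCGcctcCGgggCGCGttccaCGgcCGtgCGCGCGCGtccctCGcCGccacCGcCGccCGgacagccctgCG
The *ADGRF1* window holds 2 CG. Of all 35116 windows in the table, 18.2% hold as few, and the median is 14. Those of *ADGRF4* and *ADGRF5* hold 3, and 4 and 7. The windows of *ADGRG1* hold 5, 6 and 8. By contrast, the window of *ADGRG6* holds 36, a number reached by 12.7% of all windows, and that of *ADGRA3* holds 40. The 8 windows of *ADGRL2* range from 4 to 34. Thus the members lower with the drugs include promoters poor and rich in CG. Methylation of these promoters was not analysed here.

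*ADGRF1* was strongly expressed with mock and 43.6 to 64.8-fold lower with the drugs. A level is a log2 intensity minus the 75th percentile of its array, and a gene is called positive here from a level of -1 upwards. On this scale, the leading *ADGRF1* probe, A_23_P214267, which targets NM_153840, was at 4.30 with mock, -1.21 with DAC, -1.14 with OR-2003 and -1.71 with OR-2100. The mock array was high and the 3 drug arrays were low and just under the level of positive expression, though still well above background. The log2 differences from mock were -5.51, -5.45 and -6.02, or 45.7, 43.6 and 64.8-fold lower, in this order. Among 27921 probes that all 4 arrays measured well above background, this was the lowest value with each drug, which is the property that chose the gene. By the mean over the drugs, *ADGRF1* was at -5.66. Only *LURAP1L* was lower among genes well above background with mock, at -5.86, but it was not well above background with any drug. The cells were measured in bulk, so fewer cells with a transcript and less of it per cell cannot be told apart.

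The second *ADGRF1* probe, A_23_P365218, is listed under another accession, NM_025048. It was at -2.23 with mock, and at -6.63, -6.61 and -6.76 with the 3 drugs. It was well above background with mock only, so the drug values give a bound. The bound sets the mock level against the lowest level well above background on the drug array, and the probe was at least 4.54, 4.44 and 4.99-fold lower. Both probes thus had the mock array as the highest. With normexp background correction, the log2 differences of the leading probe were -4.63, -4.55 and -4.85.

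**Figure D1:**
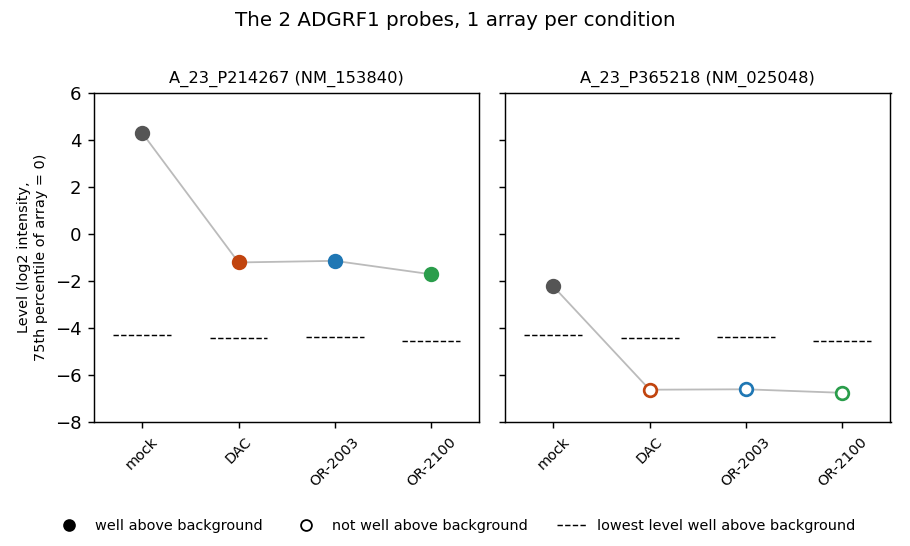
Levels of the 2 *ADGRF1* probes on the mock, DAC, OR-2003 and OR-2100 arrays (y-axis, log2 intensity, 75th percentile of the array at 0). Each point is 1 array, filled where the probe was well above background, and dashes mark the lowest level well above background on that array. The leading probe went from 4.30 with mock to between -1.14 and -1.71 with drugs, and the second was well above background with mock only.

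For an idea of measurement noise, 300 probes had 10 spots per array. The SD of the log2 intensity over spots had a median of 0.19 for levels from -4 to -1, and of 0.060 for levels of 2 or more. This spread holds no difference between cultures. Every adhesion GPCR probe had 1 spot. The order of the *ADGRF1* levels was mock, OR-2003, DAC and OR-2100. The DAC and OR-2003 arrays were 0.068 apart, less than the spot SD, and OR-2100 was lower than DAC by 0.50 and lower than OR-2003 by 0.57. Under normexp correction OR-2100 lay closer to DAC and OR-2003, at -4.85 from mock against -4.63 and -4.55.

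The other receptors of the F group were not detected. *ADGRF5*, or GPR116, controls surfactant in the lung, and *ADGRF4* is a less studied receptor. The *ADGRF4* probe was at -4.79, -6.49, -6.48 and -6.64 with mock, DAC, OR-2003 and OR-2100. The *ADGRF5* probe was at -5.33, -6.38, -6.31 and -5.87. Neither was well above background on any array, so no fold is given. Of the 5 coding genes on each side of *ADGRF1* in the gene table, *TNFRSF21*, a death receptor and the next gene on 1 side, differed by -1.46, -1.54 and -1.60 with the 3 drugs. *PLA2G7*, a phospholipase that degrades platelet-activating factor, differed by -1.14, -1.11 and -1.17. *TDRD6*, a germ cell tudor protein, was higher than mock by 1.54, 1.57 and 1.52. *TNFRSF21*, *PLA2G7* and *TDRD6* thus differed from mock in both directions, and by less than *ADGRF1*. *CD2AP* and *ANKRD66* differed by -0.52 to -0.85. *OPN5* was not well above background with mock, at -6.25, but was so with the 3 drugs, at -3.14, -3.19 and -3.44. *MEP1A* was not well above background on any array, and *PTCHD4* had no common direction.

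A gene was counted as reduced when it was at least 2-fold lower than mock and at -1 or more with mock, and as induced with a level at least 2-fold above mock and at -1 or more with the drug. The leading probe, with the highest mean level, stood for each gene. Of the 10 members, 3 were reduced and 1 was induced with each drug. The reduced ones were *ADGRF1*, *ADGRG1* and *ADGRG6*, and the induced one was *ADGRL2*. Over all named genes, 5.96% were reduced with DAC, 6.05% with OR-2003 and 6.82% with OR-2100, and 5.77%, 5.89% and 5.81% were induced. With all 3 drugs, 5.21% were reduced and 5.27% induced. Of the members, 7 were at -1 or more with mock, and among all such genes 12.3%, 12.5% and 14.1% were reduced. Members were chosen with these values known, so the shares are given side by side only. The median log2 difference of the 10 members was -0.92, -0.94 and -0.71, beside -0.12, -0.093 and -0.23 for all named genes. This member median takes in *ADGRF4* and *ADGRF5*, which were not well above background on any array. With each drug it lies midway between *ADGRF5* and *ADGRA3*, so it rests partly on background.

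*ADGRG1* and *ADGRG6* were lower with all drugs. *ADGRG1*, or GPR56, binds collagen III and transglutaminase 2 and signals through G12 and G13 to RhoA. Its probe was at 5.31 with mock, 3.89 with DAC, 3.67 with OR-2003 and 3.75 with OR-2100. Mock was the highest and the drug arrays lay close together, 2.68, 3.10 and 2.95-fold lower. *ADGRG6*, or GPR126, raises cAMP in Schwann cells and is needed for myelin. It was at 3.05, 1.90, 1.94 and 1.93, with 2.22, 2.16 and 2.18-fold lower values on the drug arrays. It passed 2-fold narrowly. Under quantile normalization its log2 differences were -0.98, -0.93 and -0.92, and under scaling by probes well above background on all arrays -0.95, -0.91 and -0.90, both short of 2-fold.

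By their leading probes, the remaining detected receptors with drug values under mock differed by less than 2-fold. *ADGRA3*, or GPR125, which has been linked to Wnt and planar polarity signalling, was at 4.35 with mock and at 3.56, 3.46 and 3.46 with the 3 drugs. Its log2 differences were -0.79, -0.89 and -0.89, and a second probe gave -0.73, -1.01 and -0.78. Both probes had mock as the highest array. With the median of the gene probes as the scale, *ADGRA3* differed by -1.12 with OR-2003, and 4 members were then reduced with that drug. *ADGRE5*, or CD97, which binds the complement regulator CD55, was at 5.24, 4.91, 4.86 and 4.80. *ADGRE2*, a myeloid receptor that binds chondroitin sulfate, was at 0.55, -0.0063, -0.069 and 0.011. *ADGRE2* and *ADGRE5* are close relatives, and whether their probes tell them apart was not tested. *ADGRL1*, a latrophilin that binds teneurins at synapses, was at 1.90, 1.56, 1.60 and 1.55. In these 4 genes mock was the highest array.

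The scaling bears on these small differences. For named genes detected on every array, the drugs differed from mock by a median of -0.18 (DAC), -0.17 (OR-2003) and -0.21 (OR-2100) on the log2 scale. Under scaling by probes well above background this median was 0.017, 0.029 and 0.011, and *ADGRE5* then differed by -0.13, -0.18 and -0.22 and *ADGRL1* by -0.13, -0.098 and -0.12. *ADGRE2* differed by -0.36, -0.42 and -0.31. *ADGRE2*, *ADGRE5*, *ADGRL1* and *ADGRA3* lay under mock with each drug on all of these scales.

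*ADGRL2*, a latrophilin that binds teneurins and FLRT proteins, was the only member higher with the drugs, and its 5 probes disagreed in size. The leading probe, A_33_P3307363, was at -5.06 with mock, and at -0.68, -0.61 and -0.63 with the 3 drugs. It was not well above background with mock, and was at least 12.14, 12.8 and 12.6-fold higher with the drugs. The probe A_33_P3404889, which the array assigns to the same transcript, NM_001350698, was at -2.25, -1.77, -1.77 and -1.60. All arrays detected it, and it was 1.39, 1.39 and 1.56-fold higher with the drugs. The probe A_23_P74042, for NM_012302, was at -3.34, -2.15, -1.96 and -2.12, and was 2.28, 2.60 and 2.33-fold higher. The last 2 probes were not well above background on any array. So mock was the lowest array in each of the 3 probes that were detected. All bounds given here rest on how the scanner software corrected the background. Under normexp correction the leading probe was above mock by 1.11, 1.15 and 1.13 on the log2 scale. With the mean of all probes, *ADGRL2* was not counted as induced. It was also not counted with scaling by probes well above background, where its log2 differences were 4.58, 4.66 and 4.65 but its drug levels fell short of -1.

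**Figure D2:**
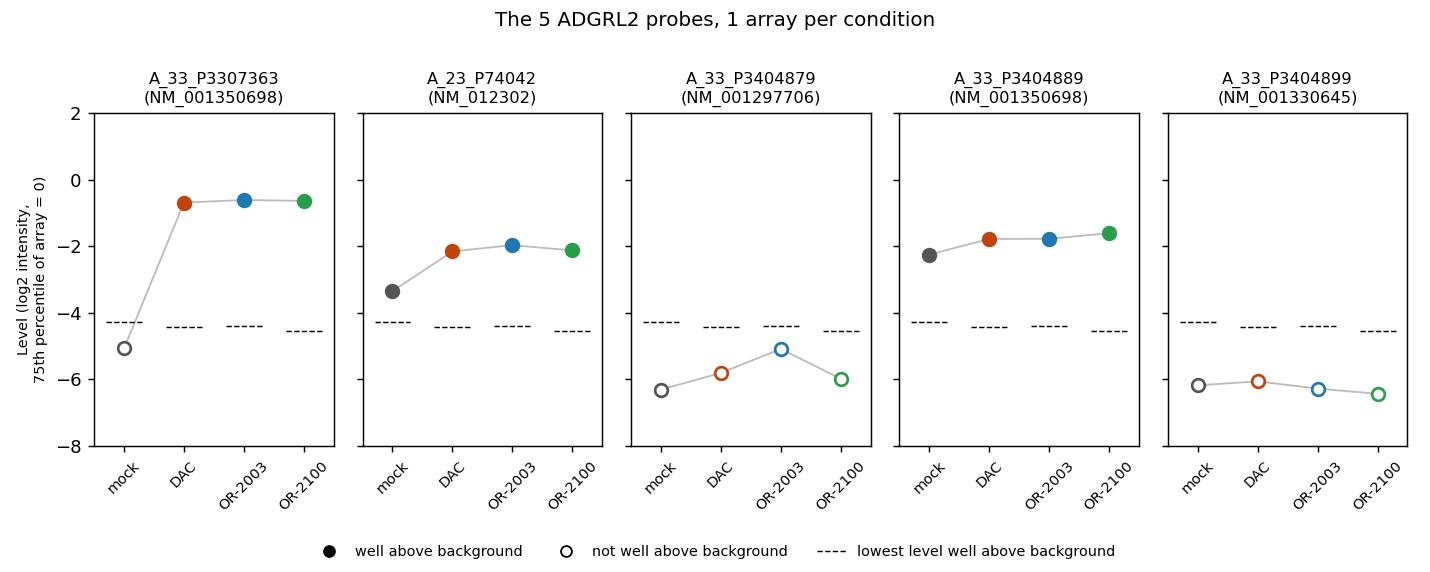
Levels of the 5 *ADGRL2* probes on the 4 arrays (y-axis, log2 intensity, 75th percentile of the array at 0). Each point is 1 array, open where not well above background. The leading probe went from -5.06 with mock to between -0.68 and -0.61 with drugs, 2 other detected probes were 1.39 to 2.60-fold higher, and 2 probes stayed under the dashes.

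The drugs were compared at matched dose and time, in 3 pairs. Of the 10 members, 0 were 2-fold apart in any pair at the level of positive expression, beside 0.008%, 0.008% and 0.004% of all named genes for DAC and OR-2003, DAC and OR-2100, and OR-2003 and OR-2100. Of the members, 8 were well above background on all drug arrays, and their median difference in size was 0.065, 0.073 and 0.055 in the same order. For named genes well above background it was 0.083, 0.11 and 0.12. *ADGRF1* had the largest member difference in the pairs with OR-2100, being 1.42-fold lower than with DAC and 1.49-fold lower than with OR-2003. *ADGRG1* had the largest in the other pair, at 0.21, with OR-2003 the lower. Under normexp correction the *ADGRF1* gaps between OR-2100 and the other drugs were smaller. The lowest level well above background was also lower with OR-2100, at -4.55, against -4.42 with DAC and -4.38 with OR-2003. Its part in the *ADGRF1* gaps was not tested. With 1 array per drug, no interval can be given, and these values do not show that the drugs act alike.

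The other adhesion GPCRs differed from mock in both directions. Of 32 family genes listed, 30 had a named probe, and 17 were well above background on all arrays and 9 on none. Of the 30, 5 were reduced with DAC, 5 with OR-2003 and 4 with OR-2100, and 4, 4 and 5 were induced. The shares over all named genes were 5.96%, 6.05% and 6.82% reduced and 5.77%, 5.89% and 5.81% induced. The family counts include the 4 called members, which were chosen with these values known. The median log2 difference of the family was -0.22, -0.33 and -0.39. It takes in the 9 genes not well above background on any array. Beside the members, *ADGRA2*, or GPR124, a partner of RECK in WNT7 signalling, was 2.12, 2.30 and 2.03-fold lower with the 3 drugs. *CELSR2*, a cadherin receptor of planar cell polarity, was 2.21, 2.26 and 1.76-fold lower. Neither *ADGRA2* nor *CELSR2* was counted with normexp correction or with scaling by probes well above background. The only reduced family genes were then members. Among the induced genes, *ADGRE1*, a receptor of myeloid cells, was at -1.83 with mock and at 0.17, 0.12 and 0.26 with the drugs, or 3.99, 3.87 and 4.26-fold higher. *ADGRB1* and *ADGRB2*, brain receptors of which the first binds phosphatidylserine on dying cells, were 2.04 to 2.24-fold higher by their leading probes. A second *ADGRB2* probe, well above background on all arrays, was 1.79, 1.74 and 1.94-fold higher, short of 2-fold.

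The myeloid gene *ADGRE1* was set beside leukocyte markers. Of the 10 on the array, 8 were well above background with mock, and 7, 7 and 8 with the 3 drugs. Their summed linear level, where 1 is the 75th percentile of the array, was 1.49 with mock and 11.6, 12.9 and 12.4 with the drugs. *CD3D*, a T cell receptor chain, was 24.7, 27.5 and 26.1-fold higher. *MS4A1* was not well above background on any array, and *PTPRC*, which marks leukocytes as a class, differed by -0.31, -0.27 and -0.16. The summed levels of the endothelial list were 0.572 with mock and 2.75 to 2.80 with drugs, and those of the fibroblast list 3.29 and 5.73 to 5.96. Their part in the adhesion GPCR values was not tested. *ADGRD1* was not well above background with mock and reached -1.73, -1.88 and -1.83 with the drugs, at least 5.90, 5.32 and 5.48-fold higher, which is under the level of positive expression. *ADGRV1*, a very large receptor needed for hearing, was 1.81, 1.96 and 2.03-fold higher.

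Genes that bind or carry signals from these receptors were also examined, in 5 lists. Of 29 ligands and partners, 2, 2 and 3 were reduced with the 3 drugs, and 4, 3 and 4 induced, beside 5.96%, 6.05% and 6.82% of all named genes reduced and 5.77%, 5.89% and 5.81% induced. The same shares stand beside the counts of the other lists. *THY1*, a surface protein that binds *ADGRE5*, was not well above background with mock, at -5.22, and was at 2.57, 2.65 and 2.61 with the drugs. It was at least 116, 123 and 119-fold higher. *TGM2*, a ligand of *ADGRG1*, was at -2.04 with mock and 14.6, 14.4 and 11.4-fold higher with the drugs. *COL4A2*, a chain of collagen IV, which binds *ADGRG6*, was 2.63, 2.80 and 2.54-fold higher. *CD55*, the ligand of *ADGRE5*, was 2.02, 1.96 and 2.27-fold higher, and *PRNP*, a ligand of *ADGRG6*, was 2.01, 1.96 and 2.21-fold lower, so both lay near the 2-fold limit. *UNC5A*, a netrin receptor, was 2.52, 2.64 and 2.38-fold lower. *UNC5B* of this list was 1.97, 2.01 and 2.15-fold lower, and so was counted as reduced with OR-2003 and OR-2100 only. *PRNP* was counted with DAC and OR-2100 only. The median log2 difference of the list was -0.056, -0.00076 and -0.17. These are the values of *TENM3* with DAC and of *TENM4* with OR-2003 and OR-2100. Neither gene was well above background on any array, so no shift of the list, or lack of one, can be read from them.

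Among 13 G protein alpha subunits, *GNAI1* and *GNAZ*, which inhibit cAMP synthesis, were reduced with all drugs. *GNAI1* was 2.97, 3.21 and 3.49-fold lower and *GNAZ* 2.17, 2.47 and 2.39-fold lower. *GNAS*, which stimulates cAMP synthesis, differed by -0.66, -0.75 and -0.88, and *GNA12* and *GNA13* by 0.17 to 0.49. *GNAQ* was 2.10, 1.99 and 1.98-fold higher, and so was counted as induced with DAC only. *GNA15* was 3.62, 4.07 and 4.04-fold higher but under -1 on every array, and so was not counted. Of 17 genes for adenylyl cyclases, protein kinase A and CREB, the cyclase *ADCY4* was 6.98, 7.69 and 9.32-fold higher and the kinase subunit *PRKACB* 3.98, 4.28 and 4.11-fold lower. *PRKAR1B* of this list was 2.31, 2.22 and 1.998-fold higher, and so was counted as induced with DAC and OR-2003 only. Of 7 receptor kinases and arrestins, only *GRK3*, a kinase that switches receptors off, was reduced, at 3.03, 2.91 and 2.99-fold lower, and 0 were induced. The medians of these 3 lists were -0.12, -0.12 and -0.068, then -0.052, -0.071 and 0.047, and then -0.37, -0.31 and -0.56. The OR-2003 medians of the alpha subunit and cyclase lists are the values of *GNA14* and *ADCY8*, which no array measured well above background.

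In the list of 11 genes for RhoA signalling, 1 was reduced and 3 were induced with each drug. The induced genes were *CCN1*, *CCN2* and *ANKRD1*, known targets of the coactivator YAP. *CCN1* was at 2.93 with mock and at 5.90, 5.91 and 5.84 with the 3 drugs. *CCN2* was at -2.63 with mock and 30.1, 33.0 and 33.6-fold higher with the drugs. *ANKRD1* was not well above background with mock and at least 16.9, 18.9 and 14.6-fold higher. *ARHGEF1*, the exchange factor that links G12 and G13 to RhoA, was 2.20, 2.21 and 2.13-fold lower, and *RHOA* itself differed by -0.19, -0.20 and -0.42. *ARHGEF1* had 2 probes and *PRKACB* 3, and the other reduced genes of the 5 lists had 1. With the mean of all probes of a gene, the lists together had 6, 6 and 7 reduced genes, against 7, 7 and 8. At least 1 of *ARHGEF1* and *PRKACB* was then not counted. *ARHGEF12*, another such exchange factor, was at -1.94 with mock, too low to be counted. It was 3.57-fold lower with OR-2003 and 3.70-fold lower with OR-2100, and at least 5.00-fold lower with DAC, where it was not well above background. The median log2 difference of the list was 0.15, 0.25 and 0.082.

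The genes most like *ADGRF1* were sought by the root mean square distance over the 3 log2 differences, among 16965 genes well above background with mock. By this rule the 5 nearest were *LURAP1L*, *MB* (myoglobin), *SLC7A11* (the cystine transporter), *ANXA10* (an annexin) and *DDIT4* (an inhibitor of mTOR), at distances of 0.44, 1.17, 1.18, 1.40 and 1.49. *LURAP1L* and *MB* were not well above background with any drug, so their distances rest on values that are only bounds, and no likeness to *ADGRF1* can be read from them. *SLC7A11* was at 5.74 with mock and at 1.23, 1.18 and 1.26 with the 3 drugs. *DDIT4* was at 6.44, and at 2.27, 2.28 and 2.21. *ANXA10* was at -3.27, -3.58 and -3.93 with the 3 drugs. Like *ADGRF1*, it was lowest with OR-2100. Unlike *ADGRF1*, it was lower with OR-2003 than with DAC. The measure rests on 4 arrays that share the mock array.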

How the data were processed

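Expression in HML58-3 cells was measured on 4 one-colour Agilent arrays, 1 per condition. The authors deposited the processed intensity of each of 62976 spots, made with Feature Extraction 12.1.0.3, after background correction and before normalization between arrays. The deposited series table held the same intensity for every spot. Control spots and spots marked as non-uniform or outlying were left out, the log2 intensity was averaged per probe, and the 75th percentile of each array was set to 0, as in the study's methods. A probe counted as well above background if the software said so for more than 0.5 of the spots kept. The files give accessions, and 34892 probes were named through RefSeq genes of GRCh38.p14. The array design names hg19, so no probe coordinates are given.

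Groups follow the GEO titles, and no test was run. Members and gene lists were chosen with earlier results of these data known. All family genes, the genes of other lists called with all drugs, and the 5 nearest to *ADGRF1* are named, with the genes beside it. *CD55*, *PRNP*, *GNAS*, *GNA12*, *GNA13*, *GNA15*, *RHOA*, *ARHGEF12* and single cell type markers were named after their values were seen. So were *UNC5B*, *TENM3*, *TENM4*, *GNAQ*, *GNA14*, *ADCY8* and *PRKAR1B*. The number of arrays limits the precision. Alternatives were normexp (offset 50, on median intensity), quantile normalization, other scalings, marked spots kept, the series table, the mean of probes and other thresholds. Counting was checked on simulated data. Python 3.11.15, numpy 2.4.6, pandas 2.3.3, matplotlib 3.10.9, R 4.3.3 and limma 3.58.1 were used.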

Additional observations from a re-analysis of the deposited data

How the results depend on the processing

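Each condition is 1 array, so replicates could not be left out. No paired analysis was possible because a group is a single array. A difference was held unchanged within 1 SD between spots, and a count within 1.5 times. No sign of a counted member reversed. The series table equals the scanner values and tests nothing, and keeping marked spots or leaving out genes at background moved none of the values below. The cause of the shifts was not tested, save that scaling by bright probes lowers all levels and so makes the level threshold stricter. Bounds depend on the background correction.

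Where 3 values are given, they follow the order of DAC, then OR-2003, then OR-2100. With normexp, *ADGRF1* differed from mock by -4.63, -4.55 and -4.85, the family had 3 reduced genes with DAC and 3 with OR-2003, and 2 induced with DAC, and the 5 ligand and signalling lists together had 4 reduced and 6 induced with DAC, against 7 and 10. With quantile normalization, these lists had 4 reduced with DAC and 5 with OR-2100, and the family 2 with OR-2100. With scaling by probes well above background, *ADGRF1* differed by -5.24 with OR-2003 and -5.79 with OR-2100, 0 members were induced with any drug, the family had 2, 2 and 2 reduced and 2, 2 and 2 induced, and the lists 3, 4 and 4 reduced, with 6 induced with DAC and 5 with OR-2003. With median scaling, *ADGRF1* differed by -5.67 with OR-2003, and the lists had 11 reduced. With the mean of all probes of a gene, *ADGRF1* differed by -4.96, -4.91 and -5.27, 0 members were induced with any drug, and the family had 2 induced with DAC and 2 with OR-2003. Without a level threshold, the family had 8 reduced with DAC, 7 with OR-2100 and 7, 7 and 8 induced, and the lists 16, 14 and 13 induced. At 4-fold, the family had 1, 1 and 1 reduced and 1, 1 and 2 induced, and the lists 0, 1 and 1 reduced, with 6 induced with DAC.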

Other observations

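In several adhesion GPCR genes outside the members, probes of the same gene differed. *CELSR1*, a planar polarity cadherin, had a leading probe at 6.87 with mock and 6.85 (DAC), 6.97 (OR-2003) and 6.83 (OR-2100) with drugs, while a second probe went from 2.26 with mock to 1.45, 1.42 and 1.58. *ADGRD1* had a probe well above background with the drugs only, and another at -2.92 with mock and -3.04, -3.23 and -3.63 with the drugs. *ADGRG2*, an epididymal receptor, had a probe well above background with OR-2100 only and another well above background with mock only. *ADGRL4*, an endothelial receptor, had 2 probes, detected with OR-2100 only and with OR-2003 only. *ADGRG5* was 1.76, 1.56 and 1.91-fold higher with the drugs, and *ADGRG3* 1.64, 1.34 and 1.39-fold lower. *CELSR3* differed by -0.15, -0.14 and -0.11. The family genes *ADGRA1*, *ADGRB3*, *ADGRE3*, *ADGRF3*, *ADGRG4*, *ADGRG7* and *ADGRL3* were not well above background on any array.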
